A study of Mus musculus with 6 samples.

Results

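Genes of the motile cilium and of the ependymal cell were followed in L1, the first lumbar cord segment, of mice. They were chosen by name: every probe set whose single gene symbol begins with Dnah, Dnai, Cfap, Ift, Bbs, Rsph or Spag and a digit, together with Foxj1, Ccdc153, Ak7 and Tmem212. This gave 121 probe sets for 77 genes, of 18193 named genes and 45037 probe sets in all. The symbol Dnai matched no probe set, since the platform annotation lists the dynein intermediate chains as Dnaic1, Dnaic2, Wdr63 and Wdr78. All mice were male SCID mice, a strain that lacks mature T and B cells. They are given as 9 weeks old when housed and 15 weeks old at sampling, which was at 6 weeks. The N-inv group models neural invasion: human pancreatic cancer cells of the line Capan-1 were placed inside the sciatic nerve on the left. The SC group is the subcutaneous model and the PBS group the control named for buffered saline, whose site of injection the labels do not give. There were 2 arrays in each of the 3 groups. The labels do not say in words that these came from separate mice, so p-values measure the spread between samples, which may be technical.

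Ependymal cells line the central canal of the cord and carry motile cilia that stir the cerebrospinal fluid. The shaft of such a cilium, the axoneme, bends through dynein motors that are controlled by radial spokes and a central apparatus. The shaft is built by intraflagellar transport, in which trains of IFT proteins carry cargo along it, and the BBSome carries membrane proteins. IFT and BBS proteins also serve the single, immotile primary cilium that neurons, astrocytes and many other cells bear. The chosen names therefore cover proteins of motility, some of which mark ependyma in the cord, and proteins that most cell types of the cord use. A few SPAG proteins have roles outside the cilium. Some CFAP and SPAG names are not proteins of motility, among them Cfap36, Cfap410, Spag5 and Spag9. The values of the Cfap and Spag groups therefore do not read ependyma alone.

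RFX transcription factors, regulators of cilium genes, bind the X-box, an imperfect inverted repeat. Its core was searched on both strands, as GTTNCC followed by GG with 2 bases between them or with 1 base between them, in RefSeq promoters of assembly GRCm38.p6, from 250 bases before to 50 after the start of a gene. Promoters were found for 64 of the 77 genes. At least 1 of the motifs lay in 32.81% of these 64 promoters, against 10.09% of all 27025 genes with a promoter, a comparison that is not matched for base composition. The first spacing occurred in 14 member promoters (21.88%, and 6.205% of all) and the second in 12 (18.75%, and 5.887% of all). The second spacing was added after promoters had been read. The letters TGTTTGT, a forkhead motif of the kind bound by FOXJ1, occurred in 0 of the 64 and in 6.62% of all. A match is a string of letters, not a shown binding site. The promoters of Ak7 and Ccdc153 are printed because these genes stand apart below, and those of Ift57 and Bbs7 because Ift57 holds both spacings and Bbs7 the first on both strands. Each runs 5′ to 3′ on the strand of the gene, with X-box letters in capitals; overlapping matches run together.
Ak7, chr12:105705732-105706031, plus strand: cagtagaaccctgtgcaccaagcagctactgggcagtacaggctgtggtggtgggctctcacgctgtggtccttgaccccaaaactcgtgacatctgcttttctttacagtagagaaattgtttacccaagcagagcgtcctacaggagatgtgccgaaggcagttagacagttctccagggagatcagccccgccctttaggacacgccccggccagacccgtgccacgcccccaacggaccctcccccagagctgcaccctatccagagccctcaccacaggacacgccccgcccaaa
Ccdc153, chr9:44240427-44240726, plus strand: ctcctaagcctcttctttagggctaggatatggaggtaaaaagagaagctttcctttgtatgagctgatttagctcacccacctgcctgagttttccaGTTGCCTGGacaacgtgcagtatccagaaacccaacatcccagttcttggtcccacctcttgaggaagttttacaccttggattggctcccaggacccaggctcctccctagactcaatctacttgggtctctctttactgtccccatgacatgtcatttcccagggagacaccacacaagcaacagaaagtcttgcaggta
Ift57, chr16:49699044-49699343, plus strand: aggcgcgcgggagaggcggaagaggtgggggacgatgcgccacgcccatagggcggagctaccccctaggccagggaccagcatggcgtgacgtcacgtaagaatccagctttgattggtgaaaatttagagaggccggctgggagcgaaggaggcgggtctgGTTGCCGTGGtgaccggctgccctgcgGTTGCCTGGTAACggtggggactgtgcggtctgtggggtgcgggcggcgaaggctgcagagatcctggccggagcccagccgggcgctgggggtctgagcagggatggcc
Bbs7, chr3:36613340-36613639, minus strand: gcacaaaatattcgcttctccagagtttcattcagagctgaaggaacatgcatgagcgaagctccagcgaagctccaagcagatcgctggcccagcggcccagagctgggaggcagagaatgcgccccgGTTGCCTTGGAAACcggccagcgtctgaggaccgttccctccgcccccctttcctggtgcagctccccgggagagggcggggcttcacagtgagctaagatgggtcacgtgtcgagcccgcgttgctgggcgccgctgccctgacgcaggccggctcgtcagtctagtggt

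All levels below are scaled intensities, which can be set against each other between arrays but not between genes. Differences are on a log2 scale after 25.6 was added to each intensity. Both SC arrays stood apart from the rest and from each other: their correlation was 0.9648, the lowest of any pair. Actb controls gave 3′ to 5′ ratios, which reflect RNA quality, of 3.32 and 3.42 in N-inv, 3.81 and 4.70 in SC and 3.05 and 3.57 in PBS. Gapdh controls gave 3.12 and 3.38 in N-inv, 3.52 and 3.38 in SC and 2.82 and 3.02 in PBS. By Gapdh, SC replicate 2 did not stand apart. SC replicate 2 measured 13065 for Xist, an RNA of female cells, and the other 5 arrays between 138.6 and 228.5, although all mice are labelled male. For most differences of single genes that involve SC, the value without SC replicate 2 is given too.

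Of the 77 genes, 46 had a probe set above the intensity filter (59.7%), against 69.3% of all 18193 named genes. The genes of transport passed without exception, 14 of 14 Ift and 8 of 8 Bbs genes. Of the 55 other genes 24 passed: 3 of 10 Dnah, 4 of 6 Rsph, 11 of 25 Cfap, 4 of 10 Spag and 2 of the 4 ependymal genes. The filter acts on the mean log2 value over the 6 arrays, after 25.6 was added, and its cutoff corresponds to an intensity of 147.7. A probe set can fall below it through its own affinity or through single low arrays. Among those below were Foxj1, the master transcription factor of motile cilia, and Tmem212, a membrane protein used as an ependymal marker. Both lay near the cutoff, with single arrays above and below 147.7. Of the 4 single ependymal genes, the tested values thus come from Ak7 and Ccdc153 alone. Of the 46 tested genes, 22 are Ift and Bbs genes, which many cells share. Some of the tested Cfap and Spag genes are not motility genes either.

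No member differed between groups by the adjusted test. In limma, 0 of the 61 member probe sets above the filter were called at an adjusted p below 0.05 in any of the 3 comparisons, and 0% of all 27022 probe sets. At an unadjusted p below 0.05 there were 4 member probe sets in N-inv against PBS beside 4.06% of all, with 0 higher (2.28% of all) and 4 lower (1.78% of all). N-inv against SC had 6 beside 8.94% of all, with 3 higher (5.96% of all) and 3 lower (2.99% of all). SC against PBS had 3 beside 7.92% of all, with 1 higher (2.76% of all) and 2 lower (5.17% of all). The members' shares, 6.56%, 9.84% and 4.92% in this order, stood beside 4.06%, 8.94% and 7.92% of all probe sets. The standard error of a member's difference had a median of 0.19, which limits what could be resolved.

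Over the 46 genes, each read by its brightest probe set, the median difference was 0.05 in N-inv against PBS, with 28 genes higher and 18 lower. All 12614 tested genes had a median of 0.04, with 7557 higher and 5057 lower. In N-inv against SC the members' median was -0.006, with 22 higher and 24 lower, against 0.06 for all genes (7628 higher and 4986 lower). In SC against PBS it was 0.05, with 26 higher and 20 lower, against -0.02 for all genes (5904 higher and 6710 lower). The last 2 medians of the members became 0.10 and -0.02 when SC replicate 2 was left out, and -0.11 and 0.15 when SC replicate 1 was. The members' medians were within the spread of the arrays, whose standard deviation within groups was 0.11 for the members' median. By symbol group, the Ift and Bbs genes had medians between 0.03 and 0.08 in all 3 comparisons with all arrays. In N-inv against SC the Bbs median was 0.14 without SC replicate 2 and -0.17 without SC replicate 1, and in SC against PBS it was 0.0075 and 0.20. The Ift medians were 0.04 and -0.02 in N-inv against SC and 0.07 and 0.12 in SC against PBS, in the same order of arrays left out, and the plot by symbol group shows the wider scatter of the Rsph genes and of the ependymal pair.

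**Figure D1:**
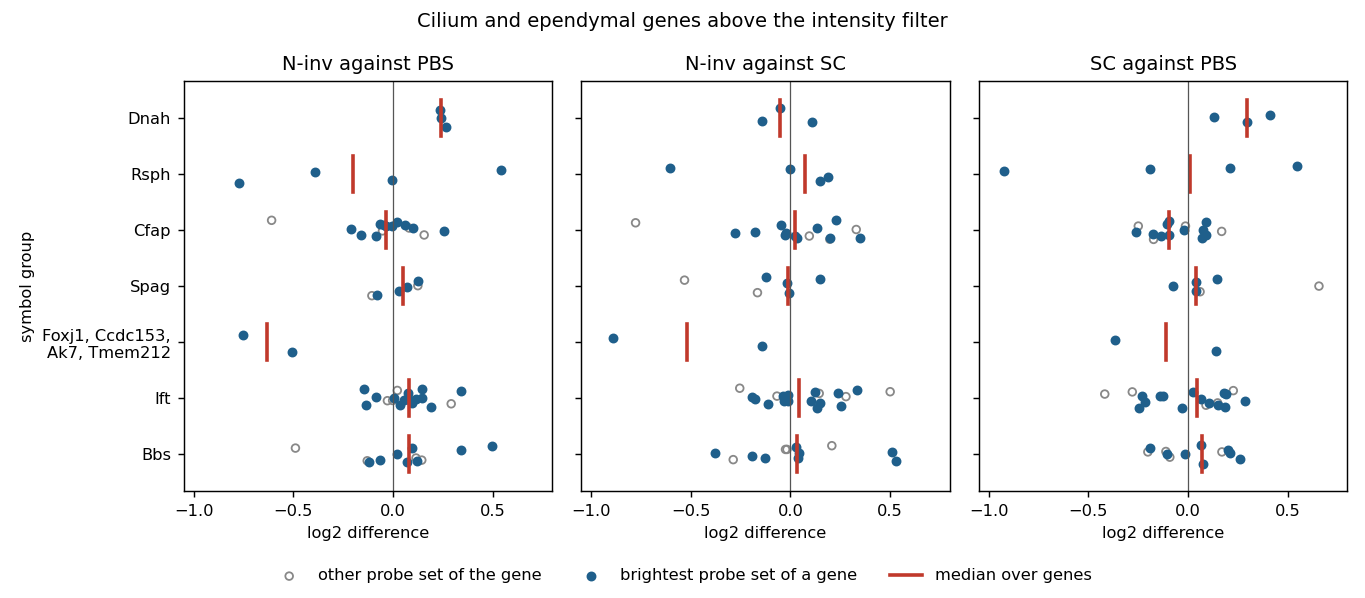
Log2 difference (horizontal axis) of each member above the intensity filter, by symbol group, in the 3 comparisons. Filled points are the brightest probe set of a gene, open points its other probe sets, and red bars the median over genes; most points lie within 0.5 of 0, with Rsph1 at -0.77 and Ak7 at -0.75 lowest in N-inv against PBS.

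Of the ependymal genes above the filter, Ak7 had lower values in N-inv than in both other groups and Ccdc153 lower values in N-inv than in PBS, neither called by the adjusted test. Ak7, an adenylate kinase of motile cilia, measured 232.5 and 329.5 in N-inv, 527.3 and 545.9 in SC, and 453.2 and 516.5 in PBS. Both N-inv arrays lay below all 4 others. Its difference was -0.75 ± 0.20 (SE) against PBS, with a 95% interval from -1.23 to -0.27, and -0.89 ± 0.20 against SC, from -1.37 to -0.41. These intervals are not adjusted for the number of probe sets. The adjusted p in limma was 1 against PBS and 0.445 against SC, so neither difference was called. Without SC replicate 2 the difference from SC was -0.87. Over 15 alternative settings the value ranged from -0.98 to -0.52 against PBS and from -1.12 to -0.66 against SC, with adjusted p between 0.649 and 1 and between 0.232 and 0.977. In bulk tissue, fewer cells of a type and less RNA per cell cannot be told apart.

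Ccdc153, a coiled-coil protein used as a marker of ependymal cells, measured 133.7 and 162.5 in N-inv, 144.5 and 188.6 in SC, and 217.2 and 224.1 in PBS. Here both tumour groups lay below both PBS arrays, and they overlapped each other. The difference was -0.51 ± 0.19 (SE) in N-inv and -0.37 ± 0.19 in SC, each against PBS, with adjusted p of 1 and 0.698. The SC difference was -0.53 without SC replicate 2 and -0.20 without SC replicate 1. The N-inv and SC means of Ccdc153 lay close to the filter, where the added 25.6 shrinks a difference. Foxj1 and Tmem212, below the filter and not tested, scattered as widely inside groups as between them. Foxj1 measured 119.6 and 193.8 in N-inv, 161.1 and 85.7 in SC and 83.3 and 250.6 in PBS. Tmem212 measured 81.8 and 237.1 in N-inv, 52.3 and 172.6 in SC and 208.3 and 145.8 in PBS.

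Radial spokes carry the signal from the central apparatus to the dynein arms. Rsph1, a protein of the spoke head, measured 238.6 and 168.4 in N-inv, 242.5 and 129.9 in SC, and 413.9 and 315.3 in PBS. As with Ccdc153, all 4 tumour arrays lay below both PBS arrays. The difference was -0.77 ± 0.30 (SE) in N-inv and -0.92 ± 0.30 in SC against PBS, with adjusted p of 1 and 0.577 in limma. Without SC replicate 2 the SC value was -0.53. Those 2 comparisons share the PBS arrays and are not independent. The other 3 tested spoke genes did not repeat this order. Rsph9, also of the spoke head, measured 299.5 and 378.0 in N-inv, 348.4 and 244.7 in SC and 393.7 and 289.5 in PBS. Rsph4a, another head protein, measured 94.2 and 165.2 in N-inv, 252.8 and 164.6 in SC and 125.2 and 236.0 in PBS. Rsph3a, of the spoke stalk, measured 175.9 and 194.2 in N-inv, 141.8 and 239.9 in SC and 76.7 and 178.5 in PBS. In each of these 3 genes all groups overlapped.

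Dynein heavy chains are the motors of the axoneme, and each gene encodes the motor of one arm type. The 3 tested heavy chains were all higher in both tumour groups than in PBS, by 0.24 to 0.27 in N-inv and by 0.13 to 0.41 in SC. Dnah2, of an inner arm, measured 194.7 and 187.9 in N-inv, 188.1 and 243.1 in SC and 167.6 and 142.5 in PBS. Neither tumour group overlapped PBS, with differences of 0.27 ± 0.18 (SE) in N-inv and 0.41 ± 0.18 in SC, and adjusted p of 1 and 0.656. With SC replicate 2 left out the SC value was 0.25. Dnah1, of another inner arm, measured 407.4 and 352.6 in N-inv, 379.1 and 409.4 in SC and 293.5 and 341.6 in PBS. Its difference was 0.24 ± 0.17 (SE) in N-inv and 0.29 ± 0.17 in SC, the last being 0.24 without SC replicate 2. Dnah9, of the outer arm, measured 199.0 and 167.7 in N-inv, 179.1 and 157.2 in SC and 103.6 and 216.9 in PBS, with overlap of all groups. A second probe set of Dnah2, below the filter, measured 75.0 and 111.7 in N-inv, 145.9 and 129.5 in SC and 100.8 and 67.8 in PBS. Its N-inv arrays overlapped PBS. The direction of Dnah1 and Dnah2 by their tested probe sets was thus opposite to that of Rsph1 and Ccdc153, and none of these values was called. Only 3 of the 10 Dnah genes were tested.

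**Figure D2:**
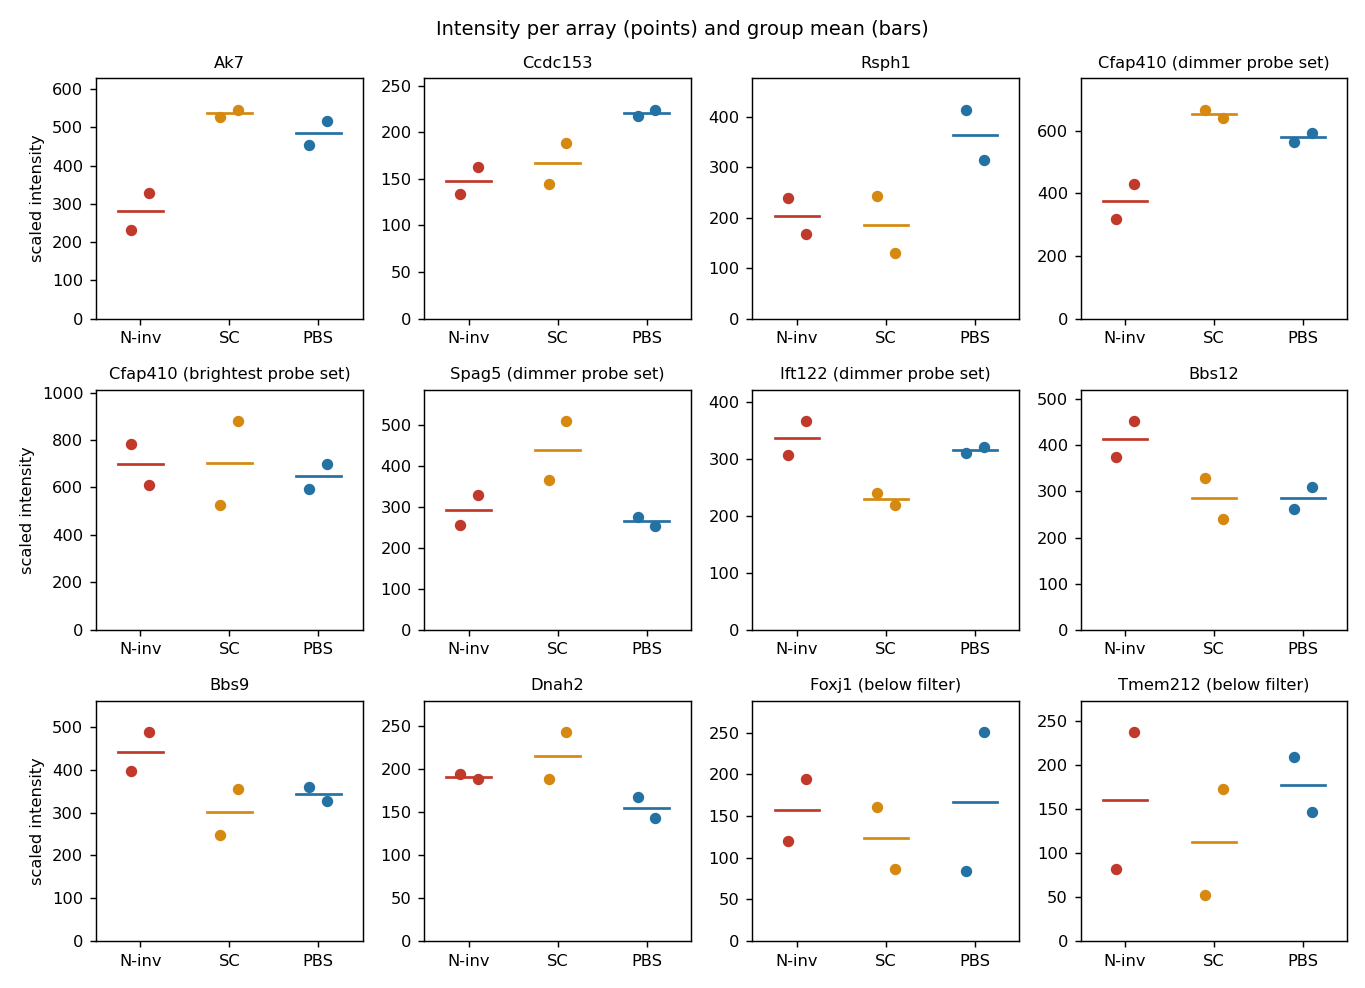
Scaled intensity (vertical axes, each from 0) of the members the text turns on, with a point per array and a bar at the group mean, for N-inv, SC and PBS. Both N-inv arrays of Ak7 lie below the 4 others, while Rsph1 and Ccdc153 are lower in both tumour groups than in PBS; Foxj1 and Tmem212 were below the intensity filter.

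CFAP proteins are found in the axoneme or at the base of cilia and differ widely in function. The 11 tested genes had a median of -0.03 in N-inv against PBS, with 4 higher and 7 lower, 0.02 in N-inv against SC and -0.09 in SC against PBS. The last 2 medians changed with the SC array left out: they were 0.23 and -0.27 without SC replicate 2, and -0.08 and 0.07 without SC replicate 1. Cfap126, which helps to place basal bodies at the cell surface, measured 515.1 and 446.0 in N-inv, 295.7 and 461.8 in SC and 418.3 and 376.8 in PBS. Its N-inv arrays lay above PBS and overlapped SC, with differences of 0.26 ± 0.23 and 0.35 ± 0.23 (SE). Against SC it was 0.65 with SC replicate 2 left out and 0.05 with SC replicate 1 left out. Cfap300, required for dynein arm assembly, measured 205.3 and 265.2 in N-inv, 339.1 and 245.2 in SC and 197.4 and 376.2 in PBS. Cfap298, also needed for assembly of dynein arms, measured 872.7 and 696.6 in N-inv, 542.6 and 807.2 in SC and 776.5 and 820.3 in PBS. In these values, from the brightest probe set of Cfap298, the spread within SC was larger than any difference between groups. Its other tested probe set measured 626.3 and 645.9 in N-inv, 520.9 and 583.5 in SC and 701.8 and 621.3 in PBS. There SC lay below both other groups, with 0.20 ± 0.16 (SE) in N-inv against SC and -0.25 ± 0.16 in SC against PBS. These were 0.28 and -0.33 without SC replicate 2. Cfap36, which binds the small GTPase ARL3, measured 4835 and 5192 in N-inv, 4030 and 4726 in SC and 4676 and 5220 in PBS. Cfap97 measured 2931 and 2688 in N-inv, 2674 and 3068 in SC and 2583 and 2803 in PBS by its brightest probe set, with overlap throughout. Its other tested probe set measured 470.1 and 431.7 in N-inv, 304.6 and 408.8 in SC and 367.8 and 438.0 in PBS. There N-inv lay above SC by 0.33 ± 0.20 (SE) and overlapped PBS. The value against SC was 0.53 without SC replicate 2 and 0.13 without SC replicate 1.

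Cfap410, a protein of the ciliary base, gave 2 answers. Its dimmer probe set measured 318.5 and 430.6 in N-inv, 667.0 and 640.3 in SC and 564.5 and 592.9 in PBS, with both N-inv arrays below all others, like Ak7. The difference was -0.61 ± 0.19 (SE) against PBS and -0.78 ± 0.19 against SC, with adjusted p of 1 and 0.445, and -0.81 against SC without SC replicate 2. Its brightest probe set measured 783.8 and 611.8 in N-inv, 526.1 and 880.7 in SC and 595.1 and 697.9 in PBS, and differed by 0.10 ± 0.27 and 0.02 ± 0.27, the last being 0.38 without SC replicate 2 and -0.34 without SC replicate 1. The mean of both probe sets gave -0.25 against PBS and -0.38 against SC. Whether they read different transcripts was not tested.

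Of the SPAG proteins above the filter, Spag1 takes part in dynein arm assembly, Spag5 is a protein of the mitotic spindle and Spag9 is a scaffold of the JNK pathway. Spag1 measured 1387 and 1356 in N-inv, 1255 and 1782 in SC and 1345 and 1568 in PBS, with overlap of all groups. Spag9 measured 23846 and 25665 in N-inv, 22010 and 28445 in SC and 21518 and 23810 in PBS, and Spag7 lay between 1637 and 2100 in all arrays. Spag5 also differed between its probe sets. The dimmer measured 257.3 and 330.4 in N-inv, 366.4 and 511.2 in SC and 276.6 and 254.4 in PBS, and SC lay above both other groups. Its difference was -0.53 ± 0.22 (SE) in N-inv against SC and 0.66 ± 0.22 in SC against PBS, with adjusted p of 0.546 and 0.577 in limma. These became -0.30 and 0.43 with SC replicate 2 left out. The brightest probe set of Spag5 measured 894.1 and 894.9 in N-inv, 695.3 and 1164 in SC and 810.4 and 943.6 in PBS, with differences of -0.01 ± 0.25 and 0.04 ± 0.25. Its SC arrays lay on both sides of the others, so leaving out SC replicate 2 gave 0.35 and -0.32, and leaving out SC replicate 1 gave -0.37 and 0.40.

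Intraflagellar transport runs outward on IFT-B trains and back on IFT-A trains. All 14 Ift genes were tested, and the differences of their brightest probe sets lay between -0.15 and 0.34 in N-inv against PBS, between -0.19 and 0.33 in N-inv against SC and between -0.25 and 0.28 in SC against PBS. In N-inv against PBS 11 were higher and 3 lower, where all tested genes also leaned higher (7557 higher and 5057 lower). Ift88, a core IFT-B protein needed to build cilia, measured 855.6 and 952.4 in N-inv, 714.9 and 810.7 in SC and 661.8 and 752.9 in PBS. Its N-inv arrays lay above all others, by 0.34 ± 0.17 (SE) against PBS and 0.24 ± 0.17 against SC, with adjusted p of 1 and 0.727. Against SC it was 0.33 without SC replicate 2 and 0.15 without SC replicate 1. Ift122, of IFT-A, measured 1844 and 1955 in N-inv, 1519 and 1485 in SC and 1508 and 1829 in PBS by its brightest probe set. N-inv lay above both other groups here, by 0.19 ± 0.17 (SE) against PBS and 0.33 ± 0.17 against SC, which was 0.32 without SC replicate 2.

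The second probe set of Ift122 measured 305.9 and 366.5 in N-inv, 240.6 and 218.4 in SC and 309.9 and 320.1 in PBS. SC lay below both other groups, with 0.50 ± 0.17 (SE) for N-inv against SC and -0.42 ± 0.17 for SC against PBS, and adjusted p of 0.483 and 0.621 in limma. They became 0.44 and -0.36 with SC replicate 2 left out. Ift43, another IFT-A protein, measured 1348 and 1414 in N-inv, 1055 and 1264 in SC and 1270 and 1424 in PBS, so that SC was again lowest. Ift46 measured 2999 and 3176 in N-inv, 3137 and 3094 in SC and 2768 and 3194 in PBS, and Ift81, a tubulin-binding IFT-B protein, measured 2318 and 2511 in N-inv, 2369 and 2045 in SC and 2085 and 2432 in PBS. Ift27, a small GTPase that links IFT-B to the BBSome, measured 1829 and 1681 in N-inv, 1827 and 2210 in SC and 1672 and 1621 in PBS by the brightest of its 3 tested probe sets, with both tumour groups above PBS. The other 2 did not repeat this in N-inv, which overlapped PBS in both (0.02 and -0.03), and 1 of them had SC above PBS. Ift20, which also works at the Golgi, measured 1590 and 1480 in N-inv, 1278 and 1494 in SC and 1510 and 1752 in PBS.

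The BBSome is assembled from BBS subunits with the help of the chaperonin-like proteins BBS10 and BBS12. All 8 Bbs genes were tested, and 6 were higher and 2 lower in N-inv than in PBS (7557 and 5057 of all tested genes). Bbs12 measured 374.6 and 453.0 in N-inv, 329.9 and 240.1 in SC and 261.9 and 309.7 in PBS. Both N-inv arrays lay above all others, by 0.50 ± 0.21 (SE) against PBS and 0.51 ± 0.21 against SC, with adjusted p of 1 and 0.549. Against SC the value was 0.30 without SC replicate 2 and 0.72 without SC replicate 1. Bbs9, a core subunit, measured 397.2 and 488.8 in N-inv, 248.1 and 355.7 in SC and 359.8 and 326.8 in PBS, again with N-inv above all others. Its difference was 0.34 ± 0.22 (SE) against PBS and 0.53 ± 0.22 against SC, with adjusted p of 1 and 0.546, and against SC it was 0.77 without SC replicate 2 and 0.29 without SC replicate 1.

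Bbs10, the other chaperonin-like protein, measured 312.2 and 314.2 in N-inv, 291.8 and 321.3 in SC and 279.2 and 305.1 in PBS by its brightest probe set. There N-inv lay above PBS, as with Bbs12, but only by 0.09 ± 0.16 (SE), and it overlapped SC. The other tested probe set of Bbs10 differed by -0.13 ± 0.22 (SE) in N-inv against PBS, with overlap of all groups. Bbs5, a lipid-binding subunit, measured 715.2 and 830.9 in N-inv, 948.0 and 1079 in SC and 869.2 and 811.7 in PBS, with SC above both other groups. Its difference was -0.38 ± 0.17 (SE) in N-inv against SC, with an adjusted p of 0.576, and -0.29 without SC replicate 2. Bbs4 measured 2267 and 2537 in N-inv, 2304 and 2992 in SC and 2281 and 2277 in PBS by the brightest of its 4 tested probe sets. These 4 ranged from -0.49 to 0.14 in N-inv against PBS, so the gene had no single direction. Bbs2 measured 1123 and 996.3 in N-inv, 851.4 and 1233 in SC and 954.6 and 990.2 in PBS.

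Groups that did not overlap were common among all probe sets, since each group has 2 arrays. In N-inv against PBS, 15 of the 61 member probe sets had both N-inv arrays higher (24.6%), against 21.6% of all probe sets, and 7 had both lower (11.5%), against 14.6% of all. In N-inv against SC there were 12 higher, against 23.6% of all, and 5 lower, against 13.3%. In SC against PBS there were 12 higher, against 14.2% of all, and 8 lower, against 20.2%. Of the 12 genes with several tested probe sets, 7, 4 and 3 had probe sets of opposite sign in these comparisons, in the same order. No gene had probe sets past 0.3 in both directions in any comparison.

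Read by array, the median deviation of the 46 members from each gene's own mean was 0.01 and 0.04 in N-inv, -0.10 and 0.13 in SC and -0.09 and 0.06 in PBS. All tested genes gave 0.03 and 0.04 in N-inv, -0.12 and 0.07 in SC and -0.04 and 0.03 in PBS. The highest median was that of SC replicate 2 in both cases. Ak7 and Ccdc153 together gave -0.56 and -0.21 in N-inv, 0.04 and 0.23 in SC and 0.19 and 0.30 in PBS. Of this pair only Ak7 had both N-inv arrays below SC. The Rsph genes gave -0.04 and 0.11 in N-inv, 0.07 and -0.18 in SC and -0.03 and 0.26 in PBS, with no separation of groups.

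**Figure D3:**
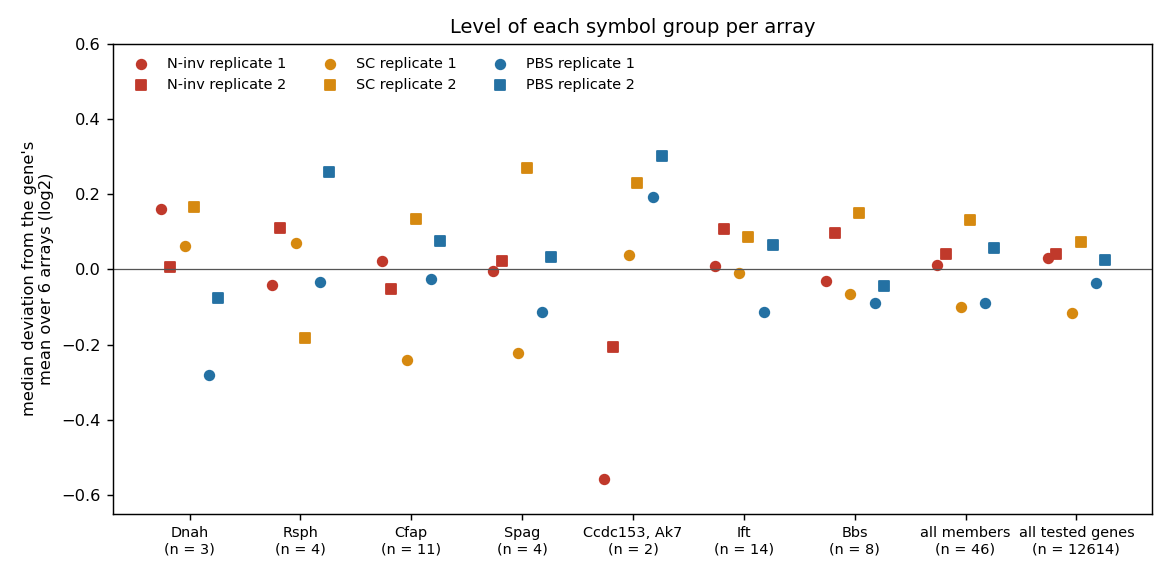
Median deviation of each symbol group from the genes' own means over the 6 arrays (vertical axis, log2), by array, with colours for N-inv, SC and PBS and shapes for replicates. Only the pair Ccdc153 and Ak7 has both N-inv arrays below all others, at -0.56 and -0.21, although Ccdc153 alone overlapped SC. All members together lie between -0.10 and 0.13.

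Genes of the same pathway outside the chosen names were read from lists, and 0 members of these lists passed the adjusted test in any comparison. All tested genes leaned higher in N-inv against PBS, with 7557 higher and 5057 lower. Of 26 further ependymal markers 14 were tested. Their median was 0.21 in this comparison, with 11 higher and 3 lower, opposite in sign to Ak7 and Ccdc153. Several of these, such as Vim, Sox2, Nes and Nnat, are also expressed by other cells of the cord. Among them Rarres2, which encodes chemerin, measured 390.2 and 405.8 in N-inv, 611.4 and 616.7 in SC and 345.4 and 328.0 in PBS. Pltp, a phospholipid transfer protein, measured 13549 and 11045 in N-inv, 7807 and 6348 in SC and 12384 and 12567 in PBS. Of the motile cilium markers in this list, Tekt1, Enkur, Hydin, Zmynd10 and Mlf1 were below the filter, while Tekt4, Dynlrb2, Lrrc23 and Fam183b were tested. In N-inv against PBS these 4 gave 0.20, 0.29, 0.02 and -0.35. Fam183b, a cilium protein, measured 180.7 and 100.0 in N-inv, 252.6 and 215.1 in SC and 159.9 and 201.7 in PBS. Both of its N-inv arrays lay below SC, by -0.68 (-0.79 without SC replicate 2) with an adjusted p of 0.53 in limma, and they overlapped PBS.

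Further axoneme and dynein assembly genes had a median of 0.09 in N-inv against PBS over 19 tested of 49. Of these 14 were higher and 5 lower, beside 7557 higher and 5057 lower of all tested genes. Gas8, a subunit of the dynein regulatory complex, measured 539.8 and 600.1 in N-inv, 411.6 and 371.4 in SC and 433.6 and 403.3 in PBS, with differences of 0.42 from PBS (adjusted p = 1) and 0.51 from SC (adjusted p = 0.47, and 0.44 without SC replicate 2). Further genes of cilium transport and of the ciliary base had medians of 0.05, 0.04 and 0.03 in the 3 comparisons over 37 tested of 38. The 9 tested of 16 regulators of multiciliated cells had a median of -0.0026 in N-inv against PBS, with 4 higher and 5 lower. E2f5, a transcription factor of multiciliated cell differentiation, measured 266.4 and 995.9 in N-inv, 1372 and 921.7 in SC and 1297 and 1054 in PBS, a difference of -1.13 from PBS (adjusted p = 1 in limma), with both N-inv arrays below PBS. Cep152, which serves centriole assembly, measured 252.7 and 94.2 in N-inv, 297.5 and 161.0 in SC and 334.8 and 248.9 in PBS, a difference of -0.78 from PBS with overlap. Rfx3, which binds the X-box, measured 1062 and 1178 in N-inv, 596.6 and 498.8 in SC and 904.4 and 754.3 in PBS. N-inv lay above and SC below the other groups, by 1.002 in N-inv against SC (adjusted p = 0.414) and -0.58 in SC against PBS (adjusted p = 0.573), which were 0.88 and -0.45 without SC replicate 2.

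Markers of other cells differed beside these values. All 9 tested microglia markers were higher in N-inv than in PBS, with a median of 0.76. Their summed intensity was 32185 and 27528 in N-inv, 18275 and 21055 in SC and 19997 and 20645 in PBS. Such sums weigh bright probe sets most. The brightest here, Csf1r, measured 21215 and 16870 in N-inv, 10709 and 13320 in SC and 13336 and 13684 in PBS. The 9 oligodendrocyte markers had a median of -0.57 in SC against PBS, 7 of them lower. This median was -0.38 without SC replicate 2 and -0.77 without SC replicate 1. The markers summed to 236978 and 237863 in N-inv, 217630 and 211777 in SC and 223510 and 239687 in PBS. The brightest of them, Mbp and Mobp, differed by 0.18 and 0.07 in SC against PBS, opposite in sign to the median. The part of microglia or oligodendrocytes in the values of Ak7, Ccdc153 or Rsph1 was not tested. Of the 14 choroid plexus genes 5 were tested, and Ttr, Folr1, Otx2 and Aqp1, which define that tissue, were below the filter. The summed intensity of the 5 was 1382 and 1328 in N-inv, 1766 and 1544 in SC and 1388 and 1594 in PBS. Among them Kcnj13, a potassium channel, measured 107.5 and 90.0 in N-inv, 343.0 and 329.0 in SC and 303.9 and 269.4 in PBS. As with Ak7, both N-inv arrays lay below all 4 others, by -1.33 against PBS (adjusted p = 0.811) and -1.54 against SC (adjusted p = 0.294, and -1.57 without SC replicate 2). The other 4 had no such order, and the part of this tissue in the Ak7 values was not tested. Neurons that contact the cerebrospinal fluid, which sit among ependymal cells, had 4 tested genes of 8 with a median of 0.12 in N-inv against PBS, all with overlap of these 2 groups. Their defining channel, Pkd2l1, measured 447.8 and 346.8 in N-inv, 420.5 and 469.8 in SC and 326.3 and 520.5 in PBS.

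**Figure D4:**
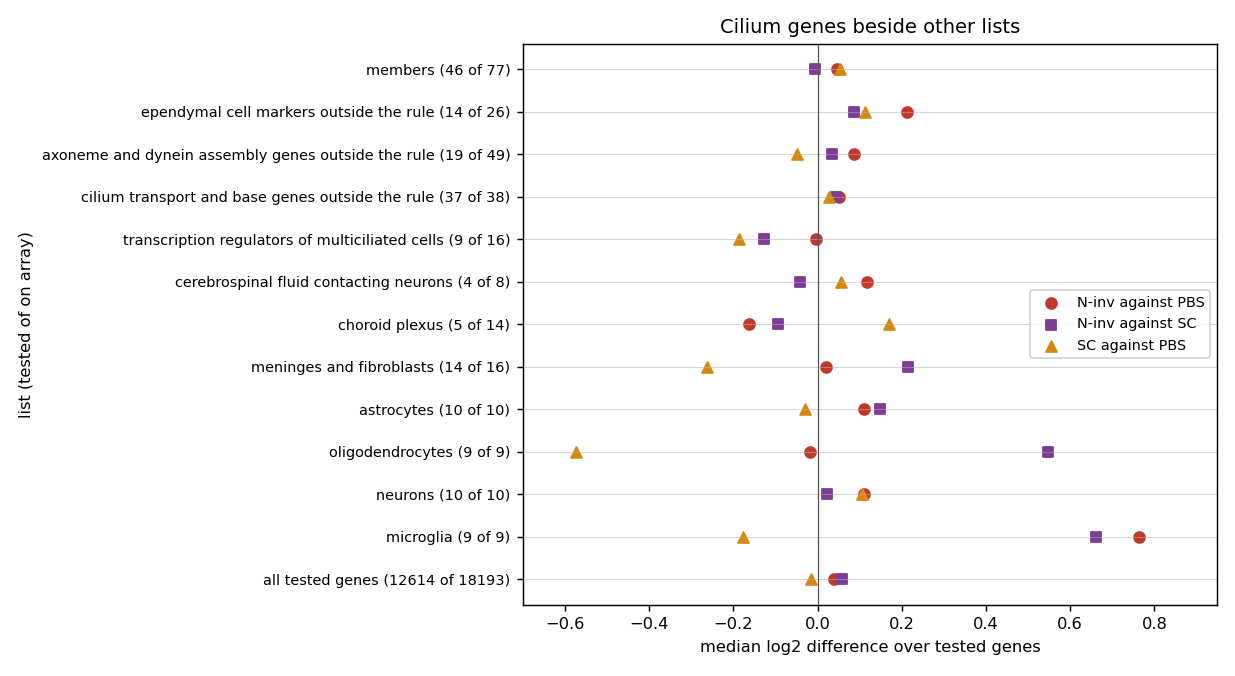
Median log2 difference over tested genes (horizontal axis) of the members and of lists of other cilium genes and cell types, with the number tested of those on the array, in the 3 comparisons. The members and other cilium transport genes lie near 0 beside microglia at 0.76 in N-inv against PBS and oligodendrocytes at -0.57 in SC against PBS.

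The 60 member probe sets below the filter were not tested. Of these, 12 had both N-inv arrays lower than both PBS arrays and 12 had both higher, beside 18.9% lower and 15.1% higher of all 18015 probe sets below the filter. In N-inv against SC 9 were lower (20.8% of all) and 4 higher (13.7% of all), and in SC against PBS 8 were lower (14.7% of all) and 11 higher (18.8% of all). Named after their values were seen, Dnah5, a motor of the outer arm, measured 58.4 and 81.0 in N-inv, 109.2 and 70.5 in SC and 104.9 and 167.2 in PBS. Dnah7a, of an inner arm, measured 85.6 and 99.3 in N-inv, 156.6 and 94.0 in SC and 146.9 and 182.2 in PBS. Dnah11, of the outer arm, had the opposite order, with 175.6 and 151.8 in N-inv, 27.8 and 187.4 in SC and 63.0 and 14.9 in PBS. Of the genes of the central apparatus, Spag6, Spag6l, Spag16 and Spag17 were below the filter, while Cfap54 and Cfap69 each had 1 tested probe set. Cfap54 measured 588.1 and 563.2 in N-inv, 486.6 and 701.9 in SC and 612.8 and 575.2 in PBS, and Cfap69 measured 352.8 and 554.0 in N-inv, 410.4 and 513.3 in SC and 467.6 and 527.7 in PBS, both with overlap of all groups.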

How the data were processed

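Total RNA of L1 cord was amplified in a pair of cycles, biotin-labelled and hybridised to Affymetrix arrays, per the labels' protocols. The authors deposited linear probe set intensities. Their 2% trimmed mean, averaged over the 6 arrays, was 1000, which is how such intensities look after scaling. How probes were summarised is not stated in the labels. The table held 45101 probe sets, of which 64 controls were left out. In the platform annotation 34945 of the rest had 1 gene symbol, 932 had several and 9160 were unnamed.

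Arrays were scaled to a common median of 256.2, then 25.6 (that median divided by 10) was added before log2, which understates differences of dim genes. Probe sets with a mean log2 value above the 40th percentile were kept (27022). They were fitted with limma 3.58.1 in R 4.3.3, two-sided, in 1 model of all 6 arrays with 3 residual and 3.72 prior degrees of freedom and Benjamini-Hochberg adjustment over all probe sets tested. With 2 arrays a group, the smallest p of an exact permutation test is 0.333, so none was used. Arrays have no depth, and their number limits the precision. The scripts were tested on simulated data.

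Members and lists were chosen with earlier results of these data known. Named were the 4 single genes, the 2 brightest genes of each symbol group, the 2 with the smallest p in each comparison, the 6 members with the smallest p in each comparison, and genes whose probe sets differed past 0.3 both ways (0 found). Others named were chosen after their values were seen. Lists of astrocytes, neurons, and meninges and fibroblasts had medians of 0.11, 0.11 and 0.02 in N-inv against PBS. Alternatives were quantile normalization, values as deposited, other pseudocounts and filters, an intensity trend, fewer groups, a replicate block, means over probe sets, and leaving out each array.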

Additional observations from a re-analysis of the deposited data

How the results depend on the processing

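The count of member probe sets called was 0 under all alternatives tried. The count over all probe sets was 0 as reported and became 1 in N-inv against PBS and 2 in N-inv against SC with an intensity trend, and 1 in N-inv against PBS with only the groups compared. Leaving out each array gave 0 to 1 in N-inv against PBS, 0 to 1 in N-inv against SC and 0 to 9 in SC against PBS, the 9 without SC replicate 1; the cause was not tested. Member probe sets at an unadjusted p below 0.05, reported as 4, 6 and 3, ran from 1 to 5, 3 to 8 and 0 to 7 when each array was left out, and with the filter at the 60th percentile were 1, 2 and 0. With no filter they were 13 in N-inv against PBS and 8 in SC against PBS, and in N-inv against SC they were 2 with an intensity trend and 3 with only the groups compared. Without a filter the counts draw on 121 member probe sets in place of 61. The share over all probe sets is not given for these alternatives, so their counts cannot be read as a result about the members. The members' medians stayed within 0.11 (the spread between arrays) of the reported values under all alternatives, and leaving out each array they ran from -0.04 to 0.12, from -0.11 to 0.10 and from -0.03 to 0.15. The differences of the 6 members with the smallest p in each comparison kept their sign in all 273 recomputed values. Choosing members by a small p favours a stable sign. None of these differences passed the adjusted threshold where each group kept 2 arrays. Other named members did change sign. The brightest probe set of Cfap410 in N-inv against SC had 0.02 as reported, 0.38 without SC replicate 2 and -0.34 without SC replicate 1. With the replicate block, 0 probe sets were called in any comparison, and the member medians, in the order above, were 0.05, -0.006 and 0.05. A filter at the 60th percentile left no Dnah or Rsph gene and neither Ak7 nor Ccdc153, so those group medians have no value there. Replicate numbers did not pair the samples: differences between replicates correlated at -0.03, 0.01 and 0.04 between groups. The 2 arrays per group and dim signal limit what could be resolved for motility genes.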

Other observations

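Of the 37 tested genes of cilium transport and base outside the chosen names, 6 had both SC arrays below all 4 others (16.2%) and 2 had both above (5.41%), and of the 19 axoneme and dynein assembly genes 2 had both below. Among all 12614 tested genes the shares were 13.7% and 6.21%. The genes below are named after their values were seen. Hspb11, an IFT-B protein, measured 1493 and 1695 in N-inv mice, 1182 and 1058 in SC mice and 1550 and 1794 in PBS mice. For Lztfl1, a regulator of the BBSome, N-inv arrays gave 1689 and 1457, SC arrays 1108 and 1210 and PBS arrays 1607 and 1593. Kif9, a kinesin of motile cilia, had 220.9 and 289.9 with N-inv, 131.8 and 156.7 with SC and 195.7 and 285.9 with PBS. In SC against PBS their log2 differences were -0.57, -0.46 and -0.63, none called in limma, with adjusted p of 0.555, 0.591 and 0.594. Without SC replicate 2 they were -0.49, -0.52 and -0.74. Wdr60, a chain of the dynein that drives transport back along the cilium, had both SC arrays above all others: N-inv arrays gave 515.4 and 581.4, SC arrays 624.5 and 871.7 and PBS arrays 476.2 and 461.6. B9d2, a protein of the ciliary transition zone, had the same order, with 748.2 and 748.1 for N-inv, 859.5 and 1163 for SC and 697.2 and 602.0 for PBS.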
